A study of Mus musculus with 6 samples.

Results

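The actin, myosin, tubulin and keratin cytoskeleton was compared between 2 mouse ovarian cancer lines, ID8 and KMF. Its genes were chosen by name, with earlier results of these data known: every gene of the deposited table whose symbol begins like that of an actin-related, myosin, tropomyosin, troponin, calponin, tubulin, stathmin, keratin, lamin, filamin, formin, profilin, capping, LIM domain, talin, ankyrin or ERM gene, or that is one of a few partners named singly, such as Unc45b, Limch1 and Nes, with class 9 myosins left out. This gave 110 genes of the 7320 listed, all protein coding. ID8 is a clonal line of C57Bl6 ovarian epithelial cells that became immortal in culture. KMF, labelled ID8-IP / KMF, came from ID8 cells passaged in vivo and recovered from the peritoneal ascites of C57Bl6 mice. Both lines were untreated and had grown for 5 days as tumorspheres, floating clusters of cells in PromoCell XF medium. Each line gave 3 libraries of poly-A RNA, at passages 23, 24 and 35 for ID8 replicates 1, 2 and 3 and at passages 14, 17 and 22 for KMF replicates 1, 2 and 3. Each line was therefore sampled as 1 culture lineage at several passages, and p-values measure the spread between passages, not between independently derived lines.

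Actin filaments are built by nucleators such as the Arp2/3 complex and formins, bundled or capped by other proteins, and pulled by myosin motors whose activity depends on small light chains and their kinases. In striated muscle the same filaments carry tropomyosin and troponin, which make contraction depend on calcium, and most epithelial cells lack the muscle isoforms. Microtubules are hollow tubes of alpha- and beta-tubulin whose growth is set by end-binding and destabilizing proteins. Keratins are the intermediate filaments of epithelia, paired from type I and type II chains, while lamins line the nuclear envelope. Ovarian surface epithelium and the mesothelium of the peritoneum typically carry the simple keratins, and basal keratins mark stratified epithelium.

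The libraries held between 23108407 and 33212313 fragments on genes, and the cytoskeleton genes carried between 1.28% and 1.69% of them. In these bulk samples fewer cells of a type and less RNA per cell cannot be told apart. Of 13 markers of ovarian surface epithelium and mesothelium, 9 were listed, with a summed level of 290 ± 39.1 FPKM (fragments scaled to gene length and library size, mean ± SD, n = 3) in ID8 and 234 ± 25.5 FPKM in KMF. The transcription factors Wt1 (108 ± 12.1 FPKM in ID8 and 77.3 ± 13.2 FPKM in KMF) and Gata4 (98.5 ± 7.73 and 47.3 ± 1.87 FPKM) supplied most of this sum and were present in both lines. Of the 8 markers fitted, 6 were called lower in KMF, 5 of them by at least 2-fold, and the median log2 fold change was -1.72. Over all 6967 fitted genes, 47.5% were called lower and 22.5% were called at least 2-fold lower, and the difference was not tested. Upk1b was not called, at 9.50 ± 4.40 FPKM in ID8 and 14.7 ± 1.96 FPKM in KMF. Upk3b fell from 25.3 ± 16.4 to 1.70 ± 0.554 FPKM, and Msln, mesothelin, rose from 34.3 ± 4.70 to 91.6 ± 11.5 FPKM. Cdh1 fell from 8.61 ± 2.94 to 0.726 ± 0.222 FPKM and Epcam from 3.41 ± 1.09 to 0.618 ± 0.261 FPKM. These cell adhesion genes are among the 5, but they are general epithelial genes and not particular to ovarian surface epithelium or mesothelium. Krt8, Krt18 and Krt19 were not analysed here. Of 7 smooth muscle markers Des and Smtn were listed, with a sum of 16.8 ± 3.61 FPKM in ID8 and 24.7 ± 2.41 FPKM in KMF, nearly all of it Smtn. Of 11 striated muscle markers, 2 were listed, Mef2c at 1.08 ± 0.34 FPKM in ID8 and 2.65 ± 0.557 FPKM in KMF and Des at 1.44 ± 0.257 and 0.418 ± 0.225 FPKM. Among 8 fibroblast markers, 4 were listed and all of these were lower in KMF, their sum being 77.3 to 107 FPKM in the ID8 libraries and 13.5 to 25.9 FPKM in the KMF libraries. Of 9 leukocyte markers only Cd74 was listed, at 1.24 ± 0.366 FPKM in ID8 and 0.309 ± 0.0886 FPKM in KMF. The part that other cells or cell states have in the results on the cytoskeleton was not tested.

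The table lists only genes that its authors had already called different between the lines, so that a high count of calls is built into it. Of the 110 genes, 104 had enough counts to be fitted with edgeR, and 99 of these had an adjusted p-value under 0.05, the threshold for a call. That is 95.2% of the fitted cytoskeleton genes, beside a background of 92.9% over all 6967 fitted genes. In KMF 56 genes (53.8%) were called higher, against 45.4% of all fitted genes, and 43 (41.3%) were called lower, against 47.5%. A change of at least 2-fold was called upward in 22 genes (21.2%, background 18.0%) and downward in 27 (26.0%, background 22.5%). The 3 libraries of a line did not overlap those of the other in 98 of the 104 genes (94.2%), beside 96.6% of all genes fitted. The median log2 fold change of KMF over ID8 was 0.37 for the cytoskeleton genes and -0.23 for all fitted genes, and their median absolute log2 fold change was 0.91 and 0.79. These shares lie near the background and say nothing particular about the cytoskeleton as a whole. The counts of calls given below for families and other lists are to be read beside these shares over all fitted genes. Differences between families or lists, or from all fitted genes, were not tested.

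Leaving out each library in turn left between 88 and 96 called genes. With at least 10 counts required in every library, the median over all fitted genes was 0.20, while that of the cytoskeleton genes was 0.35. That filter left 18 cytoskeleton genes called at least 2-fold higher and 17 lower, beside 938 and 1029 of all genes. Limma on log2(FPKM + 1) called 16 higher and 17 lower by at least 2-fold, beside 752 and 735 of all genes.

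**Figure D1:**
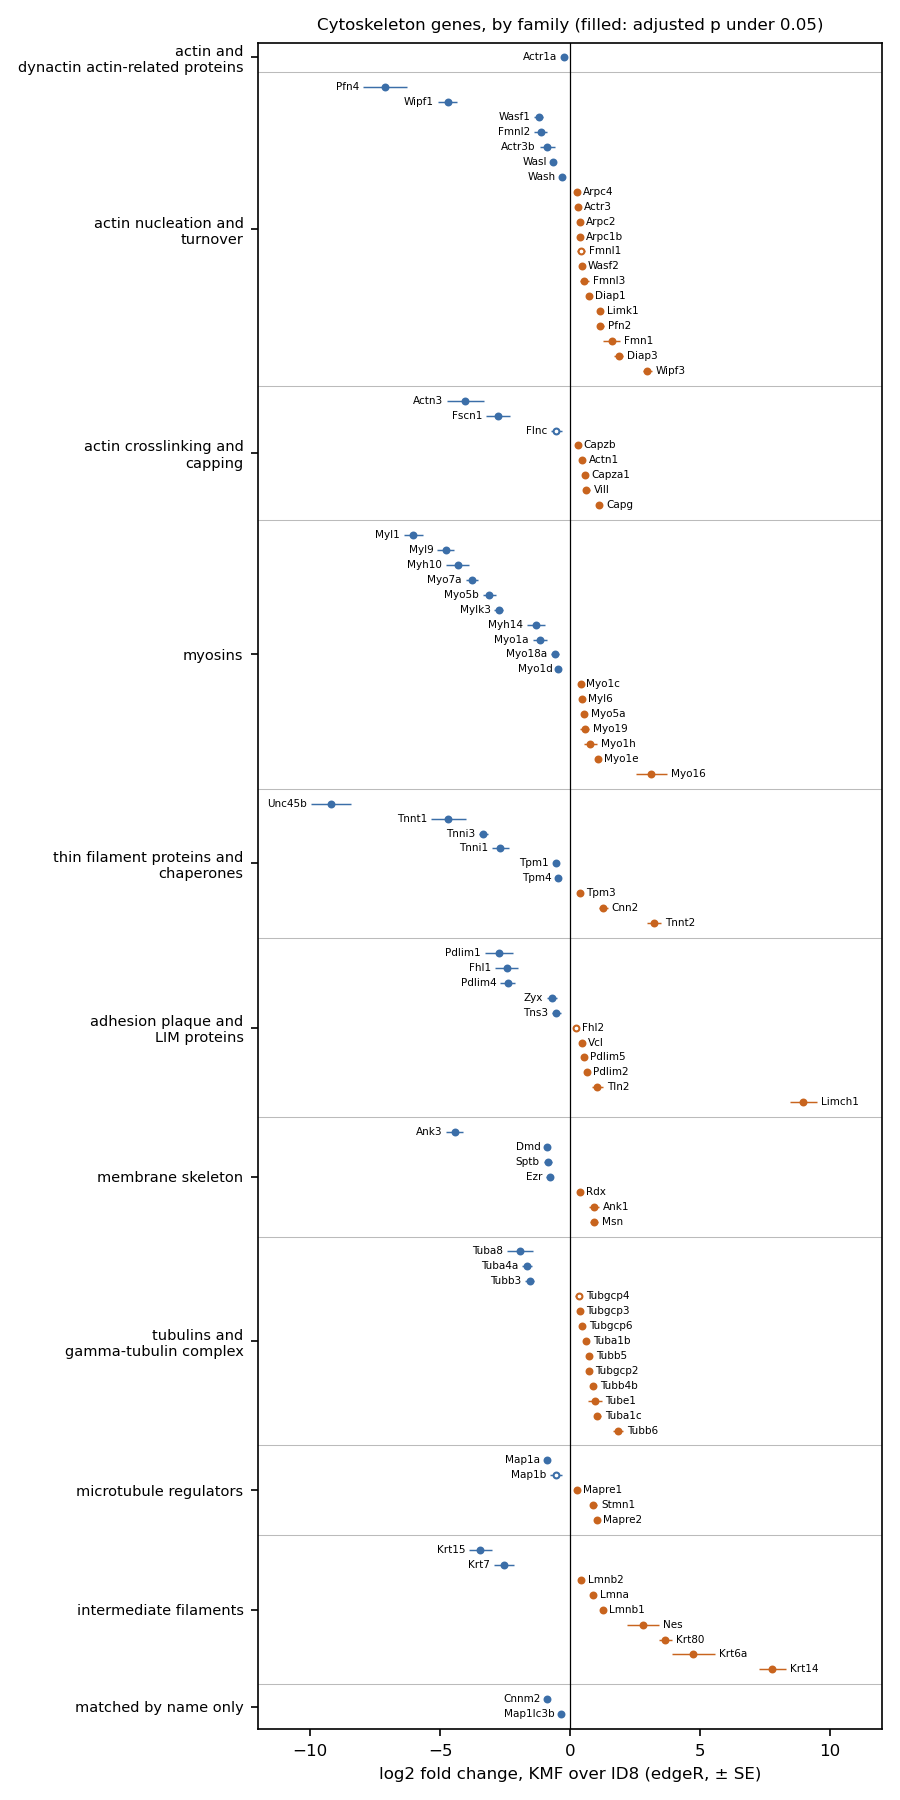
Each point is a cytoskeleton gene that could be fitted and is reported here, with its log2 fold change of KMF over ID8 on the x axis and its standard error as the bar. Families are separated by grey lines, filled points have an edgeR adjusted p-value under 0.05, and for Pfn4, Unc45b, Tnnt1 and Limch1, where a line has almost no counts, the position depends on the prior count of the fit. The points farthest to the left are Unc45b, Pfn4 and Myl1, and those farthest to the right are Limch1 and Krt14.

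Myosin genes moved in both directions. Of 21 myosin heavy chain, light chain and kinase genes, 18 were fitted, 8 of them were called higher and 10 lower in KMF, and the family median was -0.52. The median was -0.47 to -0.68 without an ID8 replicate, and -0.82, -0.75 and -0.91 without KMF replicates 1, 2 and 3. Limma on log2(FPKM + 1) or log2(FPKM + 0.1) called 5 genes of the family higher. The higher calls of Myo19 and Myo1h were each lost in 10 alternative analyses. Of the 18, 8 were called lower by more than 2-fold, where 22.5% of all fitted genes were, and 3 higher by more than 2-fold. The 8 were the nonmuscle heavy chains Myh10 and Myh14, the light chains Myl9 and Myl1, the light chain kinase Mylk3 and the unconventional myosins Myo7a, Myo5b and Myo1a.

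Myh10 encodes the heavy chain of nonmuscle myosin IIB, a motor of stress fibres and of the contractile ring (chr11:68691559-68816632, plus strand, mouse assembly GRCm38). Its level was 44.3, 36.2 and 20.4 FPKM in ID8 replicates 1, 2 and 3 and 2.68, 0.883 and 1.33 FPKM in the KMF replicates. The lowest ID8 library, that of passage 35, was still far above the highest KMF library. The log2 fold change was -4.33 ± 0.46 (SE, edgeR adjusted p = 0.00026). The other nonmuscle heavy chain listed, Myh14 of myosin IIC, fell from 2.98 ± 0.804 to 1.17 ± 0.557 FPKM (log2 fold change -1.31 ± 0.34, edgeR adjusted p = 0.0177), although its adjusted p-value was 0.0677 without ID8 replicate 1 and 0.0588 without KMF replicate 1. Myh9, the heavy chain of myosin IIA, is not in the table and was not analysed here.

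Myl9 encodes a regulatory light chain that is phosphorylated to activate nonmuscle and smooth muscle myosin (chr2:156775420-156781658, plus strand). It had 308, 384 and 374 counts in ID8 and 12, 6 and 21 counts in KMF. The groups were far apart, with a log2 fold change of -4.78 ± 0.32 (edgeR adjusted p = 3.7e-05). Myl1, the alkali light chain of fast skeletal muscle (chr1:66924295-66945404, minus strand), had 247, 255 and 236 counts in ID8 and 1, 3 and 7 in KMF. Its ID8 libraries agreed closely with each other, and the KMF libraries were close to 0. The pooled counts per fragment were 67.6 times as high in ID8 (95% exact interval 37.6 to 136, counting error only). Mylk3, a kinase known for phosphorylating the regulatory light chain of heart muscle, had 457, 295 and 358 counts in ID8 and 50, 44 and 67 in KMF (log2 fold change -2.74 ± 0.17, edgeR adjusted p = 2.7e-05).

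In contrast, Myl6, the essential light chain shared by nonmuscle and smooth muscle myosins and the most abundant gene of the family, rose modestly. Its level was 516, 542 and 493 FPKM in ID8 and 680, 637 and 751 FPKM in KMF, so that the 2 lines did not overlap. The log2 fold change was 0.45 ± 0.08 (edgeR adjusted p = 0.00385). The light chain gene of the heart atrium, Myl7, was at the edge of detection, with 1, 3 and 0 counts in ID8 and 8, 6 and 19 in KMF, and was not fitted.

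Among the unconventional myosins, which move cargo and tether membranes, directions were mixed. Myo7a, a motor of sensory hair bundles and pigment granules, was at 23.4, 16.3 and 22.9 FPKM in ID8 and at 1.94, 1.31 and 1.17 FPKM in KMF. Its highest KMF library was thus far below its lowest ID8 library (log2 fold change -3.78 ± 0.23, edgeR adjusted p = 2.6e-05). Myo5b, a carrier of recycling endosomes, fell from 4.78 ± 1.38 to 0.539 ± 0.0684 FPKM, whereas its paralog Myo5a rose from 6.68 ± 0.321 to 9.54 ± 0.893 FPKM. The class 1 myosins, single-headed motors at membranes, also split. Myo1e (14.2 ± 1.45 to 28.8 ± 1.23 FPKM) and Myo1c (42.9 ± 0.516 to 55.1 ± 1.94 FPKM) rose, and Myo1a (1.14 ± 0.168 to 0.492 ± 0.134 FPKM) and Myo1d (43.1 ± 3.32 to 30.6 ± 0.643 FPKM) fell. Myo16 had the largest increase of the family on the log2 scale, 3.13 ± 0.61 (edgeR adjusted p = 0.00468), from 2, 5 and 1 counts to 29, 13 and 30, which leaves its mean level in KMF at 0.134 FPKM.

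Myh7 and Myo7b were too low to be fitted. Myh7, the slow muscle heavy chain, had 7, 13 and 14 counts in ID8 and 1, 1 and 0 in KMF. Myo7b, a myosin of the brush border, had 22, 21 and 7 counts in ID8 and 1, 0 and 2 in KMF. Both were scarce in every library and scarcer still in KMF.

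Thin filament genes of striated muscle were detected in ID8 and fell in KMF, with 1 clear exception. The listed striated muscle markers moved in opposite directions. Des fell as well, from 1.44 ± 0.257 to 0.418 ± 0.225 FPKM (log2 fold change -1.71 ± 0.38, edgeR adjusted p = 0.00839). Mef2c rose from 1.08 ± 0.34 to 2.65 ± 0.557 FPKM (log2 fold change 1.33 ± 0.28, edgeR adjusted p = 0.00644). Of the 10 genes of the thin filament family, 9 were fitted, 3 were called higher and 6 lower, beside 45.4% and 47.5% of all fitted genes. The family's median log2 fold change was -0.54, or -1.31 with genes at the detection floor set to their lower bound. Unc45b, a chaperone that folds muscle myosin (chr11:82910550-82943403, plus strand), had 336, 347 and 134 counts in ID8 and 0, 1 and 0 in KMF. A single fragment was thus found in all KMF libraries together. The pooled ratio of ID8 over KMF was 823 (95% exact interval 147 to 32560, counting error only), whose upper end is set by that fragment.

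Troponin I is the subunit that blocks the actin-myosin contact, and troponin T anchors the complex on tropomyosin. Tnni3, the cardiac troponin I gene, had 26.3, 21.7 and 27.3 FPKM in ID8 and 2.09, 2.28 and 2.81 FPKM in KMF, a log2 fold change of -3.34 ± 0.17 (edgeR adjusted p = 1.3e-05). Its libraries were tight within each line. Tnni1, the slow skeletal troponin I gene, fell from 4.40, 6.52 and 3.24 FPKM to 0.867, 0.603 and 0.685 FPKM. Tnnt1, the slow skeletal troponin T gene, had 44, 47 and 22 counts in ID8 and 0, 2 and 2 in KMF, a pooled ratio of 28.5 (95% exact interval 10.8 to 106). Tnnt3, its fast skeletal counterpart, had 27, 8 and 6 counts in ID8 and none in KMF, and it was not fitted. The cardiac troponin T gene Tnnt2 took the other direction, with 1.73, 2.39 and 1.32 FPKM in ID8 and 20.8, 17.0 and 12 FPKM in KMF (log2 fold change 3.23 ± 0.28, edgeR adjusted p = 0.0001). In KMF, Tnnt2 was therefore the most abundant of the listed troponin genes, and in ID8 it was Tnni3.

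Some of these genes are neighbours on the genome. Tnni1 and Tnnt2 lie on chromosome 1 with 25.4 kb between them (135779434-135810989 and 135836354-135852260), and the former fell while the latter rose. Tnnt1 and Tnni3 lie on chromosome 7 with 1.92 kb between them, and both fell.

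Tropomyosins run along the actin groove and set which myosins and bundlers can bind. The summed level of the listed genes Tpm1, Tpm3 and Tpm4 was 659 ± 44.3 FPKM in ID8 and 556 ± 28.3 FPKM in KMF, and the makeup of the sum changed. Tpm3 rose from 26.1 ± 1.66% to 39.5 ± 0.957% of the listed tropomyosin FPKM, the libraries being 26.4%, 24.2% and 27.5% in ID8 and 39.7%, 40.3% and 38.5% in KMF. Tpm4, the most abundant of the listed tropomyosins in ID8, fell from 298 ± 18.9 to 209 ± 20.7 FPKM (log2 fold change -0.47 ± 0.09, edgeR adjusted p = 0.0053), and Tpm1 fell from 190 ± 25.3 to 128 ± 12.1 FPKM. Cnn2, a calponin that stabilizes actin filaments, rose from 9.91, 13.4 and 8.93 FPKM to 25, 23.9 and 27.7 FPKM.

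**Figure D2:**
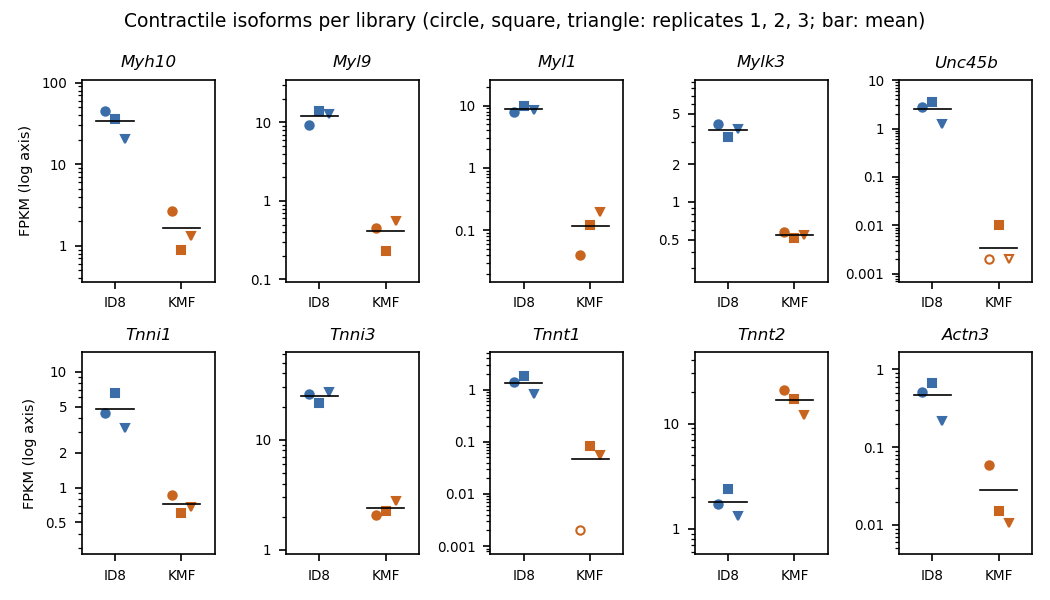
FPKM on a log axis of 10 contractile genes in each library, with ID8 in blue and KMF in orange, circles, squares and triangles for replicates 1, 2 and 3, and a bar at the mean of 3 libraries. Libraries with no count are drawn as open symbols at an arbitrary low position, since a log axis has no 0. In all panels the lines do not overlap, with Tnnt2 alone higher in KMF.

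The promoters of the cytoskeleton genes were searched for the CArG box, the palindromic element that serum response factor is known to bind in many muscle and actin genes. RefSeq promoters (build GRCm38.p6, 250 bases before to 50 after a start site) were matched to 88 of the 110 genes, 2 of them by an older symbol. A CArG box was found in 10 of the 88 genes (11.4%), against 1.81% of 27025 genes with a promoter window, or in 9.65% of 114 windows against 1.63% of 32851. The 10 genes were Arpc4, Cnn2, Dmd, Fhl1, Fhl2, Myl6, Myl7, Myl9, Myo1e and Vcl. Of these, 5 were called higher and 3 lower in KMF, while Fhl2 was not called and Myl7 was not fitted, so that genes with the element went both ways. The match is a description of letters, not of binding. The windows below are 30 bases long, on the strand of the gene, with the element in capitals and its distance before the start site, and they are shown for 3 genes that rose and 3 that fell. The start is that of the RefSeq promoter, and a gene can have several. For Fhl1 and Myl6 the window lies inside the gene as listed, before an internal start. Which starts are used in these cells was not tested.

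Cnn2 (rose, chr10:79988534-79988563, plus strand, 56 bases before the start): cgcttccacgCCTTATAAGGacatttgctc

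Myl6 (rose, chr10:128493040-128493069, minus strand, 50 bases before the start): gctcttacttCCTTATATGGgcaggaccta

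Vcl (rose, chr14:20929161-20929190, plus strand, 227 bases before the start): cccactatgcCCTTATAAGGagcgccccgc

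Myl9 (fell, chr2:156775293-156775322, plus strand, 161 bases before the start): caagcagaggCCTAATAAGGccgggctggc

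Fhl1 (fell, chrX:56779571-56779600, plus strand, 102 bases before the start): ccttggatcaCCTAAAATGGttaagaattt

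Dmd (fell, chrX:82948762-82948791, plus strand, 98 bases before the start): catgggcagtCCTATTATGGgaaagcaact

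The element is the same in Cnn2 and Vcl, and differs in its inner A and T letters in the others. A TEAD motif (GGAATG or its reverse complement CATTCC, either strand, with letters shared with a CArG box in none of these genes) was present in 18 of the 88 genes (20.5%), against 16.6% of all genes with a window. The table held 6 of 25 genes that encode these factors or are their classic targets. KMF was higher for 3 of the 6, among them Tead4 (means of 1.1 and 7.8 FPKM in ID8 and KMF), and lower for the other 3, among them Thbs1 (11.2 and 1.5 FPKM). All 6 were called, beside a background of 92.9% of all fitted genes.

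Of 20 genes of actin nucleation and turnover, all fitted, 12 were called higher and 7 lower, and their median was 0.38. The Arp2/3 complex starts filament branches. Arpc2, the most abundant of its listed subunits (chr1:74236084-74268209, plus strand), was at 306, 321 and 332 FPKM in ID8 and at 393, 413 and 412 FPKM in KMF, without overlap between the lines (log2 fold change 0.38 ± 0.07, edgeR adjusted p = 0.00332). Arpc1b rose from 190 ± 4.79 to 241 ± 20.5 FPKM and Actr3 from 97.5 ± 4.70 to 118 ± 2.89 FPKM. The Arpc1b gene shares 18.2% of its exonic bases with Pdap1 on the other strand, and Actr3 was not called under upper quartile scaling (adjusted p = 0.0598). Actr3b, the scarce paralog of Actr3, had 77, 95 and 114 counts in ID8 and 49, 51 and 51 in KMF and was called lower (log2 fold change -0.88 ± 0.29, edgeR adjusted p = 0.045), a call lost under the replicate block and without 5 of the 6 libraries in turn, at adjusted p-values between 0.0832 and 0.168. The Arpc4 increase of 0.26 lost its call in 11 of 14 alternative analyses, and Arpc4 shares 12.2% of its exonic bases with Ttll3 on the same strand.

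WAVE proteins switch on Arp2/3 at the leading edge, and of the listed pair Wasf2 was the more abundant in both lines. Wasf1 fell from 13.4, 13.8 and 11.2 FPKM to 5.22, 4.23 and 6.68 FPKM, while Wasf2 rose from 45.5, 42.7 and 42.1 FPKM to 59.1, 54.5 and 58.6 FPKM. The share of Wasf1 in their sum went from 22.7 ± 1.70% to 8.52 ± 1.55%, and their sum changed little, from 56.2 ± 2.81 to 62.8 ± 3.55 FPKM. Wasl, the neural Wiskott-Aldrich protein that acts at endosomes and membranes, fell from 59.3 ± 2.40 to 37.0 ± 2.12 FPKM (log2 fold change -0.64 ± 0.07, edgeR adjusted p = 0.00039).

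The WIP family, which stabilizes Wiskott-Aldrich proteins, had 2 listed genes that moved in opposite directions. Wipf1 (chr2:73429610-73529734, minus strand) had 222, 187 and 106 counts in ID8 and 5, 5 and 9 in KMF (log2 fold change -4.71 ± 0.38, edgeR adjusted p = 7.2e-05). Wipf3 (chr6:54429603-54503768, plus strand) went the other way, from 95, 76 and 79 counts to 522, 473 and 969 (log2 fold change 2.96 ± 0.17, edgeR adjusted p = 2.2e-05). In ID8 the mean level was 1.37 ± 0.429 FPKM for Wipf1 and 0.697 ± 0.0159 FPKM for Wipf3, and in KMF it was 0.0493 ± 0.00695 and 5.30 ± 1.02 FPKM.

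Formins build unbranched filaments. Diap3 rose from 4.67, 5.37 and 3.25 FPKM to 15.5, 14.7 and 17.0 FPKM (log2 fold change 1.87 ± 0.18, edgeR adjusted p = 0.00016), and Diap1 from 22.2 ± 0.76 to 35.4 ± 4.43 FPKM. Fmn1 rose as well, at a level of 0.448 ± 0.0741 FPKM in KMF, whereas Fmnl2 fell from 2.82 ± 0.558 to 1.24 ± 0.419 FPKM. Fmnl1 was not called, with 4.67, 5.00 and 4.83 FPKM in ID8 and 6.97, 6.84 and 4.93 FPKM in KMF, where replicate 3 lay within the ID8 range, and it was called without that library (adjusted p = 0.00922). Limk1, the kinase that inactivates cofilin, rose from 6.21 ± 0.674 to 13.6 ± 0.373 FPKM (log2 fold change 1.17 ± 0.11, edgeR adjusted p = 0.00012).

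Profilins deliver actin monomers to growing ends. Pfn2 rose from 9.46, 9.48 and 12.1 FPKM to 24.3, 24.6 and 19.1 FPKM. Pfn4, an isoform known from testis (chr12:4769295-4778266, plus strand), had 18, 16 and 18 counts in ID8 and none in KMF, at least 5.68-fold lower against a floor of 3 counts per library. The dynactin subunit Actr1a was the only actin-related gene of its class in the table, at 94.8 ± 4.89 FPKM in ID8 and 77.5 ± 3.98 FPKM in KMF. Its call (edgeR adjusted p = 0.036) was lost without ID8 replicate 2 or 3 and without any of the KMF replicates, at adjusted p-values between 0.0689 and 0.176. Actg1, the nonmuscle gamma-actin gene, was not analysed here.

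Of 9 bundling and capping genes, 6 were called higher and 2, those of fascin and the muscle alpha-actinin, lower, and the median was 0.47. Over all fitted genes 45.4% were called higher and 47.5% lower, and the difference from these shares was not tested. Fscn1, which packs filaments into the tight bundles of filopodia (chr5:142960343-142973185, plus strand), was at 9.78, 13.6 and 7.76 FPKM in ID8 and 2.03, 0.501 and 1.90 FPKM in KMF. All KMF libraries were below all ID8 libraries, with KMF replicate 2 the lowest (log2 fold change -2.76 ± 0.45, edgeR adjusted p = 0.00212). Actn3, the alpha-actinin of fast muscle (chr19:4861223-4877909, minus strand), had 43, 47 and 16 counts in ID8 and 4, 1 and 1 in KMF, a pooled ratio of 17.8 (95% exact interval 7.91 to 49.6). The widely expressed Actn1 rose from 39.5 ± 2.93 to 53.2 ± 4.36 FPKM.

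Filamins crosslink filaments into networks and bind integrins. Flnc, the muscle filamin, was lower in KMF by its mean (11.5 ± 2.41 and 7.72 ± 1.81 FPKM), but its libraries overlapped and it was not called (edgeR adjusted p = 0.087). It was called without ID8 replicate 3 or KMF replicate 1, at adjusted p-values of 0.0226 and 0.0494, and by DESeq2 (0.0268) and under upper quartile scaling (0.0469). Capg, a gelsolin-like capping protein, rose from 58.4, 77.1 and 68.8 FPKM to 133, 154 and 144 FPKM. Capzb, the beta subunit of the barbed-end capping protein (chr4:139192899-139291818, plus strand), rose from 113 ± 2.58 to 135 ± 5.43 FPKM, a log2 fold change of 0.29 ± 0.07 (edgeR adjusted p = 0.0115) that had an adjusted p-value of 0.0534 without ID8 replicate 1 and 0.0905 under upper quartile scaling.

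Proteins of focal adhesions and of stress fibres with LIM domains split evenly. Of 11 genes, all fitted, 5 were called higher and 5 lower, and the median was 0.23, turning to -0.20 with at least 10 counts required in every library, a filter that Limch1 could not pass. Limch1, an activator of nonmuscle myosin II (chr5:66745835-67057159, plus strand), had 0, 1 and 1 counts in ID8 and 476, 264 and 415 in KMF. Its transcript was thus close to absent in ID8 and moderate in KMF (2.49 ± 0.809 FPKM), a pooled ratio of 573 (95% exact interval 158 to 4737). It was the largest increase among the 110 genes by the ratio of pooled counts.

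Among the LIM proteins, Fhl1, Pdlim1 and Pdlim4 were called lower by more than 2-fold. Fhl1, abundant in muscle (chrX:56731787-56793346, plus strand), was at 35.2, 31.3 and 25.2 FPKM in ID8 and at 4.59, 9.62 and 2.34 FPKM in KMF (log2 fold change -2.44 ± 0.45, edgeR adjusted p = 0.00355). Pdlim1, which binds alpha-actinin (chr19:40221173-40271842, minus strand), was at 13.4, 21.8 and 5.66 FPKM in ID8 and at 2.18, 2.90 and 0.977 FPKM in KMF, where the spread within a line was wide but without overlap (log2 fold change -2.74 ± 0.55, edgeR adjusted p = 0.00575). Pdlim4 fell from 84.2 ± 7.82 to 15.6 ± 6.18 FPKM, while Pdlim2 and Pdlim5 rose from 19.5 ± 2.44 to 29.6 ± 1.08 FPKM and from 27.2 ± 1.07 to 38.7 ± 1.71 FPKM. As a consequence Pdlim4 was the highest of the listed PDLIM genes in ID8 and Pdlim5 in KMF.

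Vinculin, talin and zyxin belong to the adhesion plaque, where integrins are coupled to actin. Vcl, vinculin, rose from 35.5, 33.8 and 33.6 FPKM to 48.0, 45.2 and 45.1 FPKM (log2 fold change 0.47 ± 0.07, edgeR adjusted p = 0.0012), with the reservation that 25.5% of its exonic bases are shared with Ap3m1 on the other strand. Tln2, the minor talin, rose from 1.76 ± 0.431 to 3.56 ± 0.885 FPKM, a log2 fold change of 1.05 ± 0.23 (edgeR adjusted p = 0.00799). Zyx, zyxin, a sensor of tension in stress fibres (chr6:42349828-42360146, plus strand), fell from 70.9, 73.0 and 66.6 FPKM to 55.7, 30.0 and 39.9 FPKM (log2 fold change -0.71 ± 0.20, edgeR adjusted p = 0.0253). Without ID8 replicate 1, ID8 replicate 2 or KMF replicate 3 the adjusted p-value of Zyx was 0.0682, 0.0668 and 0.0961. Fhl2 was not called, at 29.0 ± 1.41 and 33.1 ± 1.86 FPKM.

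The ERM proteins ezrin, moesin and radixin tie actin to the plasma membrane and can partly stand in for one another. Their summed transcript level was alike in the 2 lines, 422, 438 and 334 FPKM in ID8 and 431, 377 and 375 FPKM in KMF, while the leading member was exchanged. Ezr (chr17:6738041-6782784, minus strand) fell from 270, 270 and 202 FPKM to 149, 132 and 137 FPKM (log2 fold change -0.79 ± 0.13, edgeR adjusted p = 0.00218). Msn (chrX:96096042-96168552, plus strand) rose from 106, 126 and 89.6 FPKM to 230, 188 and 180 FPKM (log2 fold change 0.94 ± 0.15, edgeR adjusted p = 0.00211). Ezr thus made up 62.1 ± 1.81% of the sum in ID8 and 35.4 ± 0.998% in KMF, and Msn 26.9 ± 1.81% and 50.5 ± 2.74%. Rdx rose from 43.5 ± 2.28 to 55.4 ± 3.37 FPKM.

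**Figure D3:**
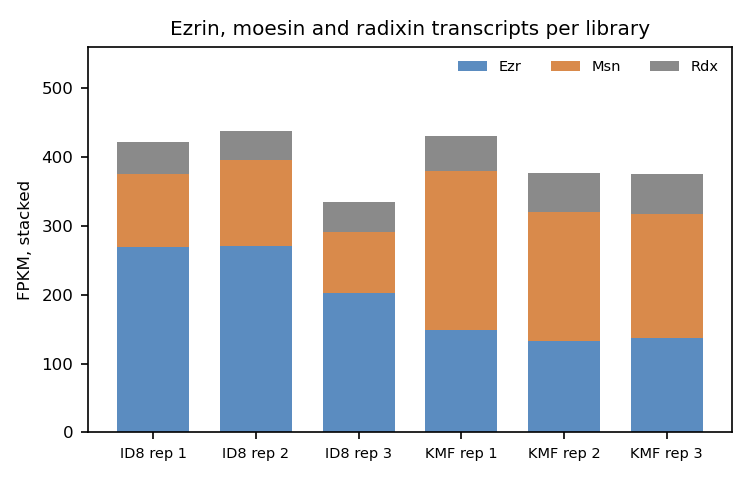
Stacked bars give the FPKM of Ezr, Msn and Rdx in each of the 6 libraries, on a linear axis from 0. The total bars are of similar height in both lines, with the blue part (Ezr) larger than the orange part (Msn) in all ID8 libraries and smaller in all KMF libraries.

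The other membrane skeleton genes fell, except for 1 ankyrin. Over the family of 7 genes, 3 were called higher and 4 lower, and the median was -0.79. This median stayed negative but was much smaller in size with at least 10 counts required in every library and under both limma settings. Ank3, ankyrin G, which anchors channels and cadherins at lateral membranes (chr10:69533772-70027438, plus strand), had 249, 236 and 148 counts in ID8 and 11, 8 and 9 in KMF (log2 fold change -4.44 ± 0.34, edgeR adjusted p = 6.05e-05). Ank1, the erythroid ankyrin (chr8:22974844-23150497, plus strand), rose from 4.07, 5.05 and 2.73 FPKM to 7.46, 6.86 and 7.54 FPKM (log2 fold change 0.92 ± 0.20, edgeR adjusted p = 0.00874). Ank3 was the scarcer of the 2 ankyrins in both lines. The spectrin gene Sptb fell from 12.5 ± 1.58 to 6.70 ± 1.37 FPKM, and Dmd, dystrophin, from 4.44 ± 0.365 to 2.34 ± 0.0655 FPKM.

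The main tubulin isotypes rose, and the minor ones moved in both directions. Of 13 tubulin and gamma-tubulin complex genes, 9 were called higher and 3 lower, beside 45.4% and 47.5% of all fitted genes. The family median was 0.63. The summed FPKM of the 4 listed beta-tubulins was 520, 567 and 515 in ID8 and 892, 820 and 937 in KMF, and that of the 4 listed alpha-tubulins was 452 ± 19.5 and 703 ± 64.2.

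Tuba1b, which supplied between 83.4% and 87.7% of the listed alpha-tubulin FPKM in each library (chr15:98931425-98934565, minus strand), was at 399, 393 and 376 FPKM in ID8 and 627, 528 and 607 FPKM in KMF (log2 fold change 0.63 ± 0.09, edgeR adjusted p = 0.00097), with the reservation that 22.7% of its exonic bases are shared with Gm49450 on the same strand. Tuba1c, which lies 95.3 kb from it, rose from 56.5 ± 8.23 to 114 ± 12 FPKM. The main beta isotypes Tubb5 (309 ± 40.2 to 496 ± 37.1 FPKM) and Tubb4b (172 ± 18.7 to 311 ± 26.7 FPKM) moved in step with them. Tubb6 was the most increased tubulin, at 19.1, 22.8 and 13.3 FPKM in ID8 and 71.1, 60.4 and 61.5 FPKM in KMF (log2 fold change 1.85 ± 0.19, edgeR adjusted p = 0.00024). The KMF libraries of Tubb6 were close together and all well above ID8.

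Tubb3, the beta-tubulin best known from neurons, went against its family. It was at 28.5, 32.8 and 42.9 FPKM in ID8 and at 13.3, 11 and 10.2 FPKM in KMF, with no overlap (log2 fold change -1.56 ± 0.17, edgeR adjusted p = 0.00031). Its share of the listed beta-tubulin FPKM fell from 6.54 ± 1.56% to 1.31 ± 0.206%, while the share of Tubb6 rose from 3.42 ± 0.748% to 7.31 ± 0.706%. The minor alpha-tubulins Tuba4a and Tuba8 fell as well. Tuba4a was at 4.39, 5.29 and 5.09 FPKM in ID8 and 1.64, 1.77 and 1.21 FPKM in KMF, with the limit that 37.3% of its exonic bases are shared with Stk16 on the other strand. Tuba8 had 48, 40 and 17 counts in ID8 and 4, 9 and 14 in KMF (edgeR adjusted p = 0.0175), and its adjusted p-value was 0.0692 without ID8 replicate 1, 0.0564 without ID8 replicate 2 and 0.0572 without KMF replicate 1. Tubulin coding sequences are alike, so that reads of 1 isotype may have been counted for another.

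Among the listed genes of the gamma-tubulin complex, from which microtubules grow at centrosomes, Tubgcp2, Tubgcp3 and Tubgcp6 were called higher. Tubgcp3 rose from 7.92 ± 0.818 to 9.91 ± 0.535 FPKM (edgeR adjusted p = 0.016). Its adjusted p-value was 0.076 under upper quartile scaling, and 0.056 and 0.0573 with limma on log2(FPKM + 1) and log2(FPKM + 0.1). Tubgcp2 rose from 11.1, 12 and 11.5 FPKM to 19.5, 17.5 and 19.4 FPKM, and Tubgcp6 from 4.47 ± 0.59 to 5.96 ± 0.317 FPKM. Tubgcp4 overlapped between the lines and was not called (edgeR adjusted p = 0.0795), although it was called without KMF replicate 1 (adjusted p = 0.0186).

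**Figure D4:**
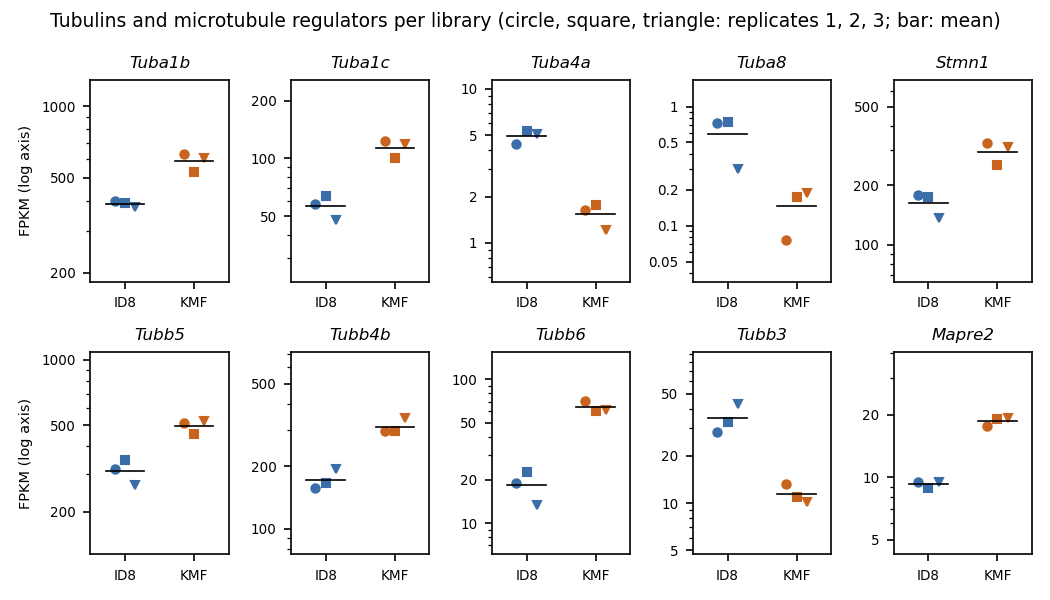
FPKM on a log axis of 8 tubulin genes and of Stmn1 and Mapre2 in each library, with colours, symbols and bars as for the contractile genes. Tuba1b, Tuba1c, Tubb5, Tubb4b, Tubb6, Stmn1 and Mapre2 lie higher in all KMF libraries, and Tuba4a, Tuba8 and Tubb3 lie lower.

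Of the 5 microtubule regulators, 3 were called higher and 1 lower, and 1 of the higher calls, Mapre1 (log2 fold change 0.26 ± 0.08, edgeR adjusted p = 0.0467), was lost in 12 of 14 alternative analyses, where its adjusted p-value reached 0.333. Stmn1, stathmin, which binds free tubulin and promotes disassembly (chr4:134468320-134473843, plus strand), was at 178, 175 and 136 FPKM in ID8 and 326, 252 and 310 FPKM in KMF (log2 fold change 0.90 ± 0.14, edgeR adjusted p = 0.00157). Mapre2, an end-binding protein that tracks growing tips, rose with little spread, from 9.49, 8.88 and 9.49 FPKM to 17.7, 19.1 and 19.3 FPKM (log2 fold change 1.05 ± 0.07, edgeR adjusted p = 4.2e-05). Map1a, a stabilizer prominent in neurons (chr2:121289600-121310832, plus strand), fell from 4.10, 3.45 and 3.98 FPKM to 2.21, 1.82 and 2.06 FPKM. Map1b pointed the same way (18.0 ± 3.68 and 12.1 ± 3.31 FPKM) but overlapped and was not called (edgeR adjusted p = 0.103), while it was called without ID8 replicate 3 (0.0317) or KMF replicate 1 (0.0149), by DESeq2 (0.0317) and with the replicate block (0.0381).

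Intermediate filament genes had the highest family median, 1.25, with 7 of 9 fitted genes called higher and 2 lower. Of all fitted genes 45.4% were called higher and 47.5% lower, and the difference was not tested. The summed FPKM of the 7 listed keratins was 8.09, 12.1 and 5.31 in ID8 and 114, 69.6 and 72.0 in KMF. In ID8 most of it came from Krt80, Krt15 and Krt7, at 47.8 ± 7.2%, 29.3 ± 1.81% and 18.4 ± 4.26%, and in KMF from Krt80 and Krt14, at 59.7 ± 9.24% and 36.4 ± 7.68%.

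Krt14, the type I keratin of basal cells (chr11:100203162-100207548, minus strand), had 8, 8 and 4 counts in ID8 and 2058, 841 and 1349 in KMF. It was near the limit of detection in every ID8 library and well expressed in every KMF library (log2 fold change 7.78 ± 0.52, edgeR adjusted p = 3.7e-05). The pooled ratio was 211 (95% exact interval 136 to 345, counting error only). Of the other 7 genes listed as markers of basal and squamous epithelium, Trp63, Ivl and Krtdap were in the table. Trp63, the master factor of basal cells, was at 0.195 ± 0.0321 FPKM in ID8 and 0.374 ± 0.0923 FPKM in KMF, a low level in both lines that was called higher in KMF (log2 fold change 0.98 ± 0.31, edgeR adjusted p = 0.0414). Krtdap had 0, 1 and 2 counts in ID8 and 8, 9 and 7 in KMF, Ivl had 6, 15 and 10 in ID8 and 2, 1 and 0 in KMF, and neither was fitted. Krt5, the usual partner of Krt14, was not analysed here.

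Krt6a, a type II keratin induced in wounded epidermis (chr15:101689932-101694307, minus strand), had 12, 6 and 1 counts in ID8 and 291, 58 and 133 in KMF, which differed by several times among themselves (log2 fold change 4.74 ± 0.82, edgeR adjusted p = 0.00275). It has a close paralog, and 19.5% of its exonic bases overlap an antisense gene. Krt16, its usual type I partner, had 0, 1 and 0 counts in ID8 and 20, 11 and 9 in KMF, a pooled ratio of 39.7 (95% exact interval 6.73 to 1606), and was not fitted. Krt80 (chr15:101349571-101370125, minus strand) was the most abundant keratin in the table, at 3.29, 5.79 and 2.92 FPKM in ID8 and 56.0, 46.2 and 45.7 FPKM in KMF (log2 fold change 3.67 ± 0.26, edgeR adjusted p = 4.5e-05).

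Of the keratins, Krt7 and Krt15 were called lower. Krt7, a simple keratin and marker of mesothelium and ovarian surface epithelium (chr15:101411043-101430313, plus strand), had 227, 200 and 85 counts in ID8 and 22, 25 and 39 in KMF (log2 fold change -2.55 ± 0.39, edgeR adjusted p = 0.00142). The highest KMF library was below the lowest ID8 library. Krt15 had 123, 151 and 63 counts in ID8 and 10, 9 and 11 in KMF (log2 fold change -3.45 ± 0.43, edgeR adjusted p = 0.00056). Krt23 had 6, 11 and 1 counts in ID8 and none in KMF, and was not fitted.

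Several of these keratins were neighbours within the keratin clusters. On chromosome 11 Krt15 (100131758-100135928), which fell, lay 67.2 kb from Krt14, which rose, and Krt16 (100246091-100248902) lay 38.5 kb further on. On chromosome 15 Krt80, which rose, lay 40.9 kb from Krt7, which fell. Other than Krt14 and Krt16, the neighbours thus differed in opposite directions.

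The 3 listed lamins were called higher. Lmna, the gene of lamins A and C and the most abundant intermediate filament gene in the table (chr3:88481148-88509956, minus strand), was at 144, 165 and 140 FPKM in ID8 and 302, 255 and 251 FPKM in KMF (log2 fold change 0.89 ± 0.11, edgeR adjusted p = 0.0006). Lmnb1, a B-type lamin that stays bound to the membrane, was at 20.1, 19.7 and 18.0 FPKM in ID8 and 45.2, 40.3 and 48.2 FPKM in KMF (log2 fold change 1.25 ± 0.09, edgeR adjusted p = 5.1e-05). Lmnb2 rose from 6.82 ± 0.58 to 8.85 ± 0.766 FPKM (edgeR adjusted p = 0.0205), with adjusted p-values of 0.0845 without ID8 replicate 1, 0.0663 without KMF replicate 3, 0.0775 under upper quartile scaling and 0.0516 with the replicate block. The ratio among them changed little, Lmna making up 85.1 ± 0.763% of the lamin FPKM in ID8 and 83.4 ± 1.87% in KMF. Nes, nestin, a filament protein of progenitor cells, rose from 2.81, 4.97 and 1.62 FPKM to 38.1, 7.56 and 18.9 FPKM, and its KMF libraries were the most scattered among the abundant members of the family (log2 fold change 2.82 ± 0.62, edgeR adjusted p = 0.00837). Vim, vimentin, was not analysed here.

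**Figure D5:**
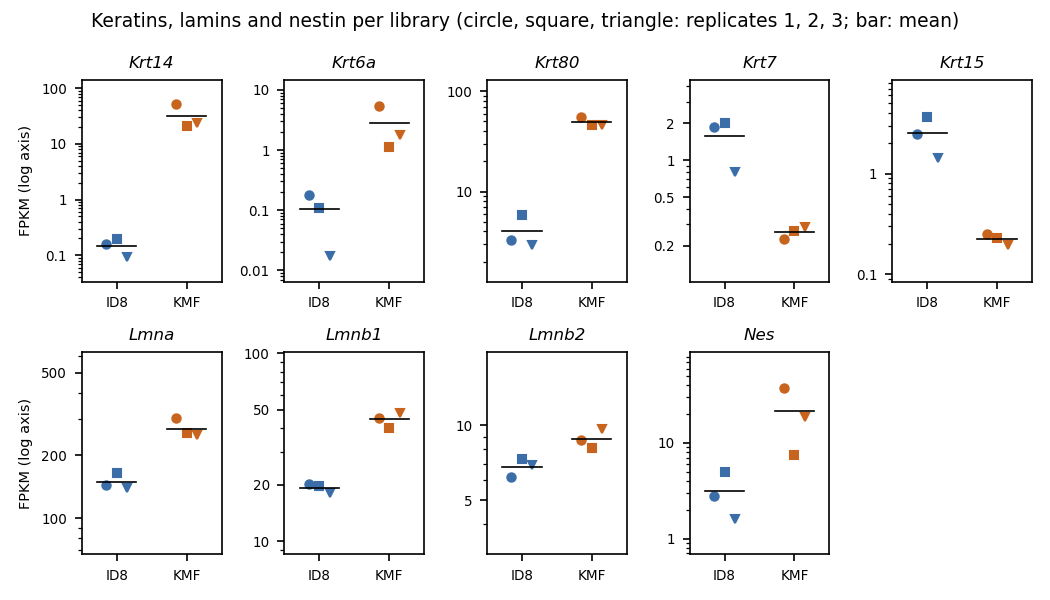
FPKM on a log axis of 5 keratins, 3 lamins and nestin in each library, with colours, symbols and bars as for the contractile genes. Krt14, Krt6a and Krt80, the lamins and Nes lie higher in all KMF libraries and Krt7 and Krt15 lie lower, and the 3 KMF libraries of Nes and Krt6a are spread more widely than those of the lamins.

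A pair of genes entered by name alone. Cnnm2, a magnesium transporter gene (chr19:46761596-46878795, plus strand), fell from 10.5 ± 0.592 to 5.52 ± 0.531 FPKM (log2 fold change -0.89 ± 0.10, edgeR adjusted p = 0.00038), and Map1lc3b, an autophagy gene (chr8:121590361-121598760, plus strand), fell from 59.7 ± 2.02 to 45.1 ± 2.31 FPKM (log2 fold change -0.37 ± 0.07, edgeR adjusted p = 0.00528). They are no part of the cytoskeleton families described here.

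By level, 81 of the 110 genes had a mean above 1 FPKM in both lines, 11 in ID8 only and 5 in KMF only, and 13 stayed at or below it in both. A total of 16 genes had a mean over 100 FPKM. The largest fold changes belonged to genes that 1 line hardly expressed, while among the genes above 100 FPKM only Capg (log2 fold change 1.12 ± 0.12) changed by more than 2-fold. The ID8 library of passage 35 was the lowest of the ID8 libraries for 60 of the 104 fitted cytoskeleton genes and for 2609 of all 6967 fitted genes. It was the library farthest from the ID8 median for 44.2% of the cytoskeleton genes and for 44.5% of all genes. Of the KMF libraries, replicate 1 was the highest for 51 of the 104 cytoskeleton genes and for 2329 of all genes. KMF replicate 2 was the lowest for 50 and for 2326. Whether passage number has a part in these differences was not tested.

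Other genes of the same pathways were read from lists chosen by function. The background for their counts is 45.4% called higher and 47.5% called lower of all fitted genes, and differences from it were not tested. Of 58 other actin-binding proteins, 37 were listed, 36 fitted, 19 called higher and 15 lower. The bundler Pls1 rose from 0.131 to 5.72 FPKM and the contractile ring scaffold Anln from 10.3 to 56.6 FPKM, whereas Evl, a filament elongator, fell from 5.29 to 0.0558 FPKM and Espn, a bundler, from 212 to 92.6 FPKM. Cyfip2 fell from 0.836 to 0.022 FPKM and its paralog Cyfip1, the other scaffold of the WAVE complex, rose from 24.1 to 32.6 FPKM.

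Of 48 other microtubule-associated genes, 23 were listed and fitted, 11 were called higher and 9 lower, with the spindle gene Tacc3 rising from 8.47 to 39.6 FPKM and the bundler Tppp falling from 7.69 to 0.509 FPKM. Of 31 desmosome and filament linker genes, 16 were listed and fitted, 10 called higher and 6 lower. Dsp, desmoplakin, which ties keratins to desmosomes, rose from 3.26 to 11.5 FPKM and Pkp1 from 1.6 to 20.1 FPKM, the desmosomal cadherin Dsg2 fell from 11.2 to 3.03 FPKM, and the lamin-binding receptor Lbr rose from 10.2 to 27.5 FPKM. These genes were picked from the lists after their values had been seen.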

How the data were processed

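RNA of 3 ID8 and 3 KMF tumorsphere cultures was sequenced from poly-A libraries. The submitters' processing notes name CASAVA 1.8, STAR 2.5, DESeq2 and mm10, whereas the methods of the study name TopHat2; the counting tool and whether it used strand are not given in the sources used here. The deposited table holds raw read counts and the FPKM that the authors computed from them with the listed gene length. It further holds the authors' deposited signal per line (the mean of size-factor scaled counts), their log2 fold change and their p-value with its adjusted p-value, none of which was used as a result. The largest adjusted p-value is 0.0499, so only genes already called are listed, out of 17359 tested. Coordinates are those of the table and match GRCm38, where 7286 of 7320 identifiers overlap their position in GENCODE M21 and 75 of the 110 genes have the identical position. A total of 14 symbols turned into dates by a spreadsheet were restored from the identifiers.

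Library totals were recovered from count, FPKM and length, and a floor of 3 counts was 0.0903 to 0.130 CPM, that is, relative to the recovered total. All listed genes entered 1 edgeR 4.0.16 fit to their counts under R 4.3.3 (TMM, filterByExpr, glmQLFit and glmQLFTest, two-sided), with Benjamini-Hochberg adjustment over the 17359 genes. Calls had an adjusted p-value under 0.05. The filter removed 6 of the 110 genes (Myh7, Myl7, Myo7b, Tnnt3, Krt16 and Krt23). No library pair of a line agreed within sampling noise (lowest chi-square per degree of freedom 19.3). Exact intervals (95%, Clopper-Pearson) cover counting error only, since counts were pooled over the libraries of a line and the spread between libraries was left out. The libraries also had no molecular identifiers. Fitting was tested on simulated counts.

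The members, families and lists were chosen with earlier results of these data known. Named in each family were the 3 called genes with the largest change (ranked by the bound for genes at the floor) and the most abundant gene, plus Krt7, Krt8, Krt18, Krt19, Vim, Lmna, Lmnb1, Actg1, Myh9, Myl9, Tagln and Stmn1 where listed; other genes were named after their values had been seen, and a few results are not reported here. Tagln was not analysed here. Alternatives were DESeq2 1.42.0, library totals alone, upper quartile scaling, no filter, at least 10 counts in every library, limma 3.58.1 on log2(FPKM + 1) and log2(FPKM + 0.1) for genes with a mean over 1 FPKM, a replicate block, and each library left out. Python 3.11.15, pandas 2.3.3, numpy 2.4.6, scipy 1.17.1 and matplotlib 3.10.9 were used.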

Additional observations from a re-analysis of the deposited data

How the results depend on the processing

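No cytoskeleton gene changed direction in any of the 14 alternatives that could fit it, and 81 of 104 were called in all of them, while 18 called genes lost their call in at least 1 and 4 gained one. The changes of a count or median given here have no tested cause. Requiring at least 10 counts in every library gave 17 cytoskeleton genes and 1029 of all genes called at least 2-fold lower, a median over all genes of 0.20 in place of -0.23, 1 gene called lower both among bundling and capping genes and among intermediate filaments, a median of -0.20 for adhesion plaque and LIM genes and of -0.25 for the membrane skeleton. Limma on log2(FPKM + 1) gave 17 genes at least 2-fold lower, 752 of all genes at least 2-fold higher and 735 lower, and an all-gene median of 0.20, while log2(FPKM + 0.1) gave 951 lower and 0.22; both gave 1 lower bundling gene, 5 higher myosins, 1 lower intermediate filament gene and 9 lower genes of the other actin-binding list. Their medians were -0.18 and -0.23 for the membrane skeleton and 0.57 and 0.58 for the SRF and TEAD list, with 1.90 for intermediate filaments at a pseudocount of 0.1 and 0.23 for the other microtubule genes at 1. Upper quartile scaling moved the median of all genes by -0.11 and the share of calls that were higher from 48.9% to 41.5%, and gave medians of -0.74 for the genes matched by name only, -0.36 for Actr1a and 0.15 for microtubule regulators. DESeq2 and no filter gave thin filament medians of -1.65 and -1.60. DESeq2 called 2 microtubule regulators lower. Leaving out a library gave 0 to 1 calls for Actr1a, 3 to 5 lower calls for adhesion plaque and LIM genes, 1 to 2 lower calls for microtubule regulators, 1 to 2 for the SRF and TEAD list, and medians of -0.91 to -0.47 for myosins and 1.25 to 2.30 for intermediate filaments. Deviations of same-numbered libraries from their line means were weakly correlated (r = 0.077, -0.127 and 0.087). With means of 3 libraries this cannot decide whether the numbers pair them. The replicate block called 5720 of all genes in place of 6470, 92 of the cytoskeleton genes, no actin-related gene (0) and 2 microtubule regulators lower, and turned no other count by over 1.5 times. Low depth limits genes near the floor, whose fitted changes depend on the prior count. Each line had 3 libraries, and the effect of that number on the other genes was not tested.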

Other observations

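Among markers of other lineages, 3 of 6 endothelial and 4 of 6 neuronal genes were listed. Tek, the angiopoietin receptor of endothelial cells, was at 0.0164 ± 0.00164 FPKM in ID8 and 35.9 ± 10.4 FPKM in KMF, while Kdr was at 0.0425 ± 0.0294 FPKM in ID8 and at 0 in KMF and Tie1 at 0.0141 ± 0.0126 and 0.11 ± 0.0619 FPKM. Rbfox3, a marker of mature neurons, was at 0.00359 ± 0.00622 FPKM in ID8 and 4.48 ± 2.09 FPKM in KMF, and Map2, a microtubule protein of dendrites, at 0.0431 ± 0.0274 and 0.383 ± 0.102 FPKM, in contrast to Tubb3 and to Snap25 (1.14 ± 0.231 and 0.26 ± 0.131 FPKM), which fell.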
